A study of Rattus norvegicus with 24 samples.

Results

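The genes followed here belong to the contractile and calcium machinery of heart muscle, or to its hormone output, and were measured in 24 samples of rat lung tissue: Myh6, Myh7, Mybpc3, Myl4, Myl7, Actc1, Tnnt2, Tnni3, Ryr2 and Nppa. They were chosen by name, and all 10 of 10 were present among the 30667 genes of the deposited table. The series concerns rats in which lung cancer was induced by smoky coal. Sample names combine 1 of 4 letters, A, B, C and G, with numbers that run from 1 to 6, which makes 6 samples per letter and 4 per number. Every sample, in all 4 letters, carries the same label, smoky coal, and the labels give no strain, sex, age, dose, time, control or meaning for a letter or a number. Nothing says that the samples came from separate animals, so the p-values measure only the spread between these samples. Levels are given as normalized counts, which by their form are read counts per gene adjusted by the authors in a way that is not stated. They summed to 61717516 to 66007148 per sample, so the depth of sequencing is unknown.

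Heart muscle contracts when calcium, released from internal stores through the ryanodine receptor, binds to the troponin complex on thin filaments and lets myosin heads of the thick filament pull on actin. In rodents, a sleeve of such heart muscle continues from the left atrium along the pulmonary veins into the lung, so that RNA of cardiac sarcomere genes can be part of lung tissue. The atria and the ventricles use different myosin light chains, and the atria store atrial natriuretic peptide, the product of Nppa.

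Myl7 and Myh6, the genes of the atrial regulatory light chain and of the alpha heavy chain of cardiac myosin, were among the most variable genes of the whole table. Their SDs of log2(normalized counts + 1) over the 24 samples were 3.85 and 3.55, ranks 2 and 3 of 30667 genes. The median SD over all genes was 0.37, and that over the 10 cardiac genes was 1.84. Myh6 ranged from 2.01 normalized counts in A3 to 18330.1 in A4, a ratio of 9100, within samples all labelled as lung. Of the 10 genes, 0 differed among letters or among numbers at an adjusted p of 0.05. Of all 30667 genes, 0.00652% differed among letters and 31.5% among numbers.

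A pair of samples, A4 and B4, stood apart in skeletal muscle genes. The summed level of 16 fast skeletal muscle genes, 16 of 16 found, was 96957 normalized counts in A4 and 23644 in B4, and 3566 to 6045 in the other 22 samples. Sample A4 also had 6899 normalized counts of Krt13, a keratin of squamous epithelium, which was at most 78.6 elsewhere. Results are therefore also given without A4 and B4. They were not the only samples that stood apart. The 8 adipocyte genes summed to 23555 in A2 and 8412 in A4, and to at most 2827 in any B, C or G sample. A2 was left out only in the recounts that drop each sample in turn. The label of lung tissue was checked on Sftpc, the surfactant protein C gene of alveolar type 2 cells, which had 603887 to 932776 normalized counts in every sample.

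Stretches upstream of the transcription start are shown for 3 of the genes, Nppa, which stayed near 0 in most samples, and Tnnt2 and Tnni3, which followed Myh6. They are the 250 bases before the start in rat RefSeq, build GRCr8, and all 10 genes matched by symbol, with 11 such windows. Of these 11 windows 6 overlap the annotated gene, among them those of Myh6 and Myl7, and are not printed. Capitals mark matches, on either strand, to GATAA, a core of GATA factor sites, to TATAAA, the box that places the start of many promoters, and to CATTCC, the core bound by TEAD factors; a GATAA on the opposite strand reads TTATC. The windows lie at chr5:163711934-163712183 on the plus strand for Nppa, chr13:49818873-49819122 on the plus strand for Tnnt2 and chr1:78342321-78342570 on the plus strand for Tnni3.
Nppa: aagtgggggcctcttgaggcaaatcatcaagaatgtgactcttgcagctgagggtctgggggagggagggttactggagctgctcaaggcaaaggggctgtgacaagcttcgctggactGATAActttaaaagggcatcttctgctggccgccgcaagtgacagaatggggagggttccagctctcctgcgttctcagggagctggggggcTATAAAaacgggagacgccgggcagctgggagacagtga
Tnnt2: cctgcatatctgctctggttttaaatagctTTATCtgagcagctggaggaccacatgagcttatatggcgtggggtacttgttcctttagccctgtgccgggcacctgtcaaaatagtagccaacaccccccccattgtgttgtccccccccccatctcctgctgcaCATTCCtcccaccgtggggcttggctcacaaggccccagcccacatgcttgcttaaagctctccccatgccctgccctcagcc
Tnni3: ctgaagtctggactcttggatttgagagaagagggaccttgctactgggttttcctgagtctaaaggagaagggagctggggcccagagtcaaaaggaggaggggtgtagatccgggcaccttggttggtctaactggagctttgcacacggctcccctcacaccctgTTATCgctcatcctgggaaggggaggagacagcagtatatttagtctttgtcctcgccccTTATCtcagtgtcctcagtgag

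The 5 motifs searched on both strands were those 3, the CArG box of serum response factor and the MEF2 site, and none of the capitals shown overlap. GATAA was found in windows of 4 of the 10 genes (Mybpc3, Nppa, Tnni3 and Tnnt2) and in 23.5% of all 33469 rat windows of this length. TATAAA was found in 2 of the genes, Myl4 and Nppa, and in 12.9% of all windows. CATTCC was found in 2, Myh6 and Tnnt2, and in 12.1% of all. The MEF2 site was found in Mybpc3 and in 2.96% of all, and the CArG box in 0 of the 10 and 1.5% of all. These matches describe letters in a window and say nothing of binding.

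**Figure D1:**
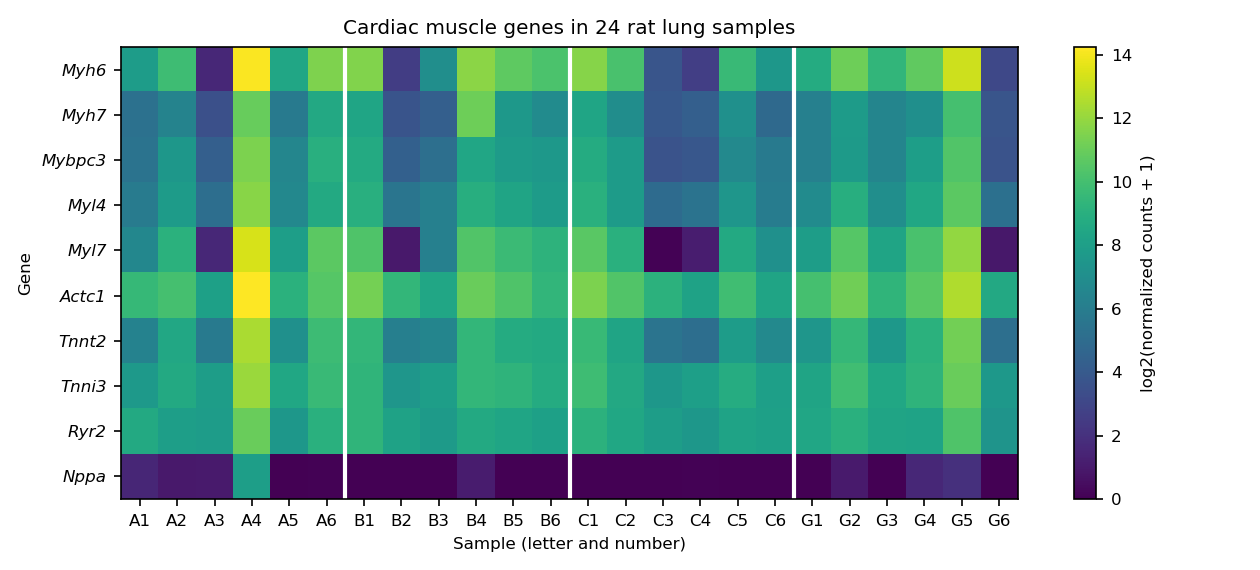
Level of each of the 10 cardiac genes (rows) in each of the 24 samples (columns, by letter and number), as log2(normalized counts + 1); white lines separate the letters. A4 and G5 are bright in nearly all rows, A3, B2, C3, C4 and G6 are dark for Myh6 and Myl7, and Nppa is dark except in A4.

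Myh6 encodes the fast alpha heavy chain, the main motor of the adult rat heart. By number, it had 229 normalized counts in A1, 2963 in B1, 3232 in C1 and 436 in G1. It had 900.4 in A2, 4.95 in B2, 1120.2 in C2 and 2209 in G2. It had 2.01 in A3, 132 in B3, 12.3 in C3 and 657 in G3. Among these, the samples of number 1 were all at 229 or more, while numbers 2 and 3 held both samples at 12.3 or less and samples at 657 or more.

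Myh6 had 18330.1 normalized counts in A4, 3452 in B4, 5.34 in C4 and 1730.1 in G4, the widest spread of any number. It had 340.4 in A5, 1677 in B5, 801 in C5 and 9136 in G5. It had 2889.9 in A6, 1173 in B6, 185 in C6 and 7.67 in G6. The 5 samples under 100 (A3, B2, C4, G6 and C3) had at most 12.3, the next sample up had 132, and they came from all 4 letters and from the numbers 2, 3, 4 and 6. In bulk tissue, fewer heart muscle cells and less RNA per cell cannot be told apart.

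Myl7, whose product is the regulatory light chain of atrial myosin, gave the sharpest contrast with background. It had 2.01 normalized counts in A3, 0.97 in B2, 0.07 in C3, 1.18 in C4 and 0.87 in G6, the same 5 samples in which Myh6 was at most 12.3. In the other 19 it ran from 73.5 in B3 to 10869 in A4, with 3990.5 in G5 and a median over all 24 of 469.5. No sample lay between 2.01 and 73.5.

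Myl4 encodes the atrial essential light chain. Its lowest value was 30.6 normalized counts in C3, its median 201 and its highest 3353 in A4, with 1636 in G5. In the 5 samples with little Myh6 it stayed at 30.6 to 44.7, so that its ratio of highest to lowest was 109 where that of Myh6 was 9100.

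Mybpc3 encodes cardiac myosin-binding protein C, which sits on the thick filament and tunes its motion. It ranged from 11.3 normalized counts in C3, with a median of 144, to 2791 in A4, and G5 was next at 1319.5. Its level in the 5 samples with little Myh6 was 11.3 to 19.9.

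Myh7 encodes the slow beta heavy chain, which is made both in heart and in slow skeletal muscle. Its highest value lay not in A4 (1952 normalized counts) but in B4 (2164), followed by G5 at 1068. Its lowest was 10.03 in A3 and its median 104. Over the 19 samples with at least 100 normalized counts of Myh6, the Myh7 to Myh6 ratio had a median of 0.117 and was 0.627 in B4, where the next highest was 0.176. It was 0.106 in A4. Slow skeletal genes were high in both libraries. Tnnt1, the slow skeletal troponin T gene, had 1351 normalized counts in B4, 138 in A4 and at most 67.3 elsewhere. Tnni1, Myl2 and Tpm3 were also higher in B4 than in A4. In contrast, Mybpc1 (4193 in A4, 1363 in B4), Myl3 (7222 and 876) and Tnnc1 (1647 and 675) were higher in A4. The list of 8 summed to 27942 in A4 and 22179 in B4. The part of slow skeletal muscle in the Myh7 level of B4 was not tested. Myh6 and Myh7 are close paralogs lying side by side, and how reads shared between them were counted is not stated, so their ratio is uncertain.

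Among thin filament genes, Actc1, the cardiac alpha-actin gene, reached 19416 normalized counts in A4 and 5979 in G5, with a median of 985. In A3, B2, C4, G6 and C3 it still had 276, 687, 292, 389 and 570.4. The levels in these 5 samples overlapped those of samples with more Myh6, such as B3 (345) and A5 (556).

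Tnnt2 encodes cardiac troponin T, which anchors the troponin complex to the thin filament. Its lowest value was 34.5 normalized counts in C4, its median 274 and its highest 5515 in A4, with 2409 in G5. Tnni3 encodes cardiac troponin I, the inhibitory subunit. It ranged from 178 in B2, with a median of 394, to 4446 in A4 and 2052 in G5. Tnni3 had a floor of 178 to 259 in the 5 samples with little Myh6, and its highest to lowest ratio was 25.0, against 160 for Tnnt2.

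Ryr2 encodes the cardiac calcium release channel and varied least, with an SD of 0.85 on the log2 scale. Its lowest value was 167 normalized counts in G6, its median 311, its highest 2054 in A4 and its second highest 1264 in G5. In the 5 samples with little Myh6 it had 167 to 290.4.

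Nppa was the exception. It had 256 normalized counts in A4, 2.93 in G5, 2.01 in G4, 1.84 in A1, and at most 1.10 in the 20 others, with 17 of the 24 samples under 1. G5, which had 9136 normalized counts of Myh6, thus had 2.93 of Nppa, a ratio of 0.00032, whereas the ratio in A4 was 0.014. Nppb, which encodes the related B-type natriuretic peptide, had 9.18 in A4, 3.92 in G5 and at most 4.95 elsewhere.

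The first comparison asked whether any cardiac gene differed among the 4 letters. The mean level of Myh6 (± SD over 6 samples, in normalized counts) was 3780 ± 7200 for letter A and 1570 ± 1430 for letter B. It was 893 ± 1230 for letter C and 2360 ± 3420 for letter G, so that in A, C and G the SD exceeded the mean. Its lowest, median and highest values were 2.01, 620.4 and 18330.1 in A, 4.95, 1425 and 3452 in B, 5.34, 493 and 3232 in C, and 7.67, 1194 and 9136 in G. All 4 ranges overlapped. With limma on log2(value + 1), 0 of the 10 genes passed an adjusted p of 0.05 in the F test over the letters, and 0 had an unadjusted p under 0.05. The share of all 30667 genes that passed was 0.00652%, 2 genes, so a count of 0 in 10 stands near the background. The limma adjusted p was 1.0 for each of the 10 genes. In a fit that also held the sample number as a block, 0.0391% of the whole table and 0 of the 10 passed.

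In the 6 pairs of letters, 0 of the 10 genes passed. The percentage of all genes that passed was 0% in B against A, in C against A and in C against B, 0.00652% in G against A, 0.00326% in G against B and 0.00652% in G against C. With the sample number as a block it was 1.27% in G against A, 0.00652% in G against B, 0.0359% in G against C and 0% in the other 3 pairs, and again 0 of the 10 genes passed in any pair. At an unadjusted p under 0.05 there was 1 cardiac gene in C against A, Nppa, and 0 in the other 5 pairs. That value rests on A4: Nppa had at most 1.84 normalized counts in the other A samples and at most 0.07 in C. In G against C the median log2 difference over the 10 genes was 0.96, with 10 of 10 higher in G, where the median over all genes was -0.00039 with 49.9% higher. These genes vary together over the samples and are not independent. Myh6 was higher in G than in C by 1.82 on the log2 scale (SE 1.97) and Myl7 by 2.18 (SE 2.12), with a limma adjusted p of 1.0 each, so both differences were about as large as their own errors.

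The median over the 10 genes was -1.01 in C against A and -0.87 in C against B, with 0 of 10 higher in C in each, and these comparisons share samples with one another and with G against C. Without A4 and B4 the first fell to -0.16, with 2 of 10 higher, and the second to -0.41, with 1 of 10 higher. In B against A the median was -0.28 and turned to 0.21 without these samples. In G against A it was 0.03 and became 0.87, with 10 of 10 higher in G. That step left out A4, the highest A sample in each of the 10 genes. It kept G5, the highest G sample in each, and leaving out G5 alone changed the sign of the G against A median. In G against B the median was 0.32, and 0.57 without A4 and B4, again with G5 kept. Without A4 and B4 again 0 of 10 genes passed in any pair.

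**Figure D2:**
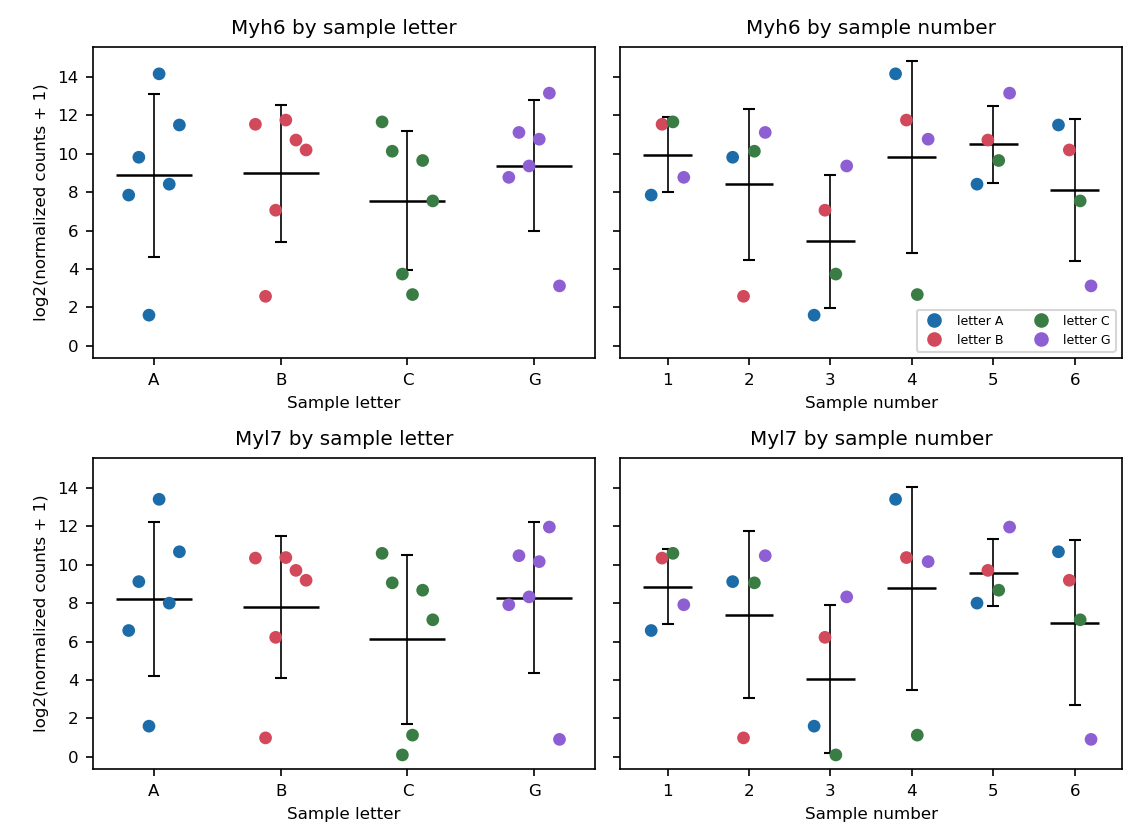
Myh6 (top) and Myl7 (bottom) as log2(normalized counts + 1) by sample letter (left, 6 samples each) and by sample number (right, 4 samples each); points are samples coloured by letter, horizontal lines are means and bars are SDs. Every letter holds a sample at the bottom of the scale (A3, B2, C3 and C4, G6), and the ranges of all letters overlap.

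The second comparison asked whether samples of the same number shared a level. For many genes they did: in the F test over numbers, with the letter in the model, limma called 9653 of 30667 genes, 31.5%. Of the 10 cardiac genes 0 passed, and 0 had an unadjusted p under 0.05. The lowest adjusted p was 0.200 for Nppa, followed by 0.235 for Myh7 and 0.240 for Actc1, and the highest was 0.639 for Ryr2. Without C4, 3 of the 10 had an unadjusted p under 0.05 and Actc1 reached an adjusted p of 0.0533, the lowest over all alternatives of this test.

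On the log2 scale the variance of each gene was split. Between letters lay 3.75% (Myh7) to 6.69% (Tnnt2) of the variance for 9 of the genes and 20.8% for Nppa, where the median over all genes was 9.45% and 13.0% is expected with no relation. Between numbers lay 17.2% (Ryr2) to 31.9% (Myh7), where the median over all genes was 37.1% and 21.7% is expected with no relation. All 10 had a lower share between numbers than the median gene, and 9 of the 10, all but Ryr2, had a higher one than is expected with no relation.

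**Figure D3:**
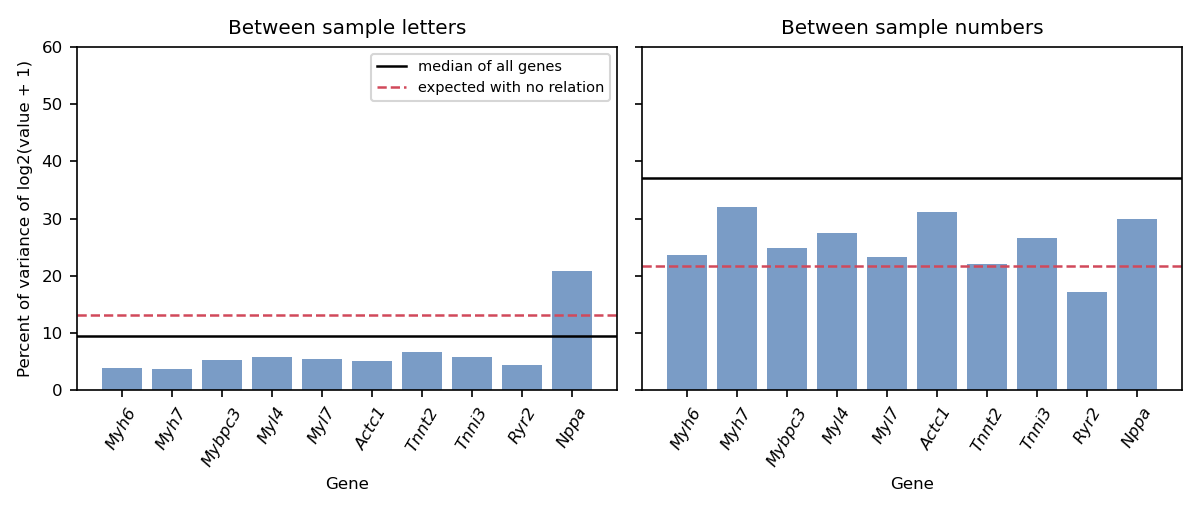
Percent of the variance of log2(normalized counts + 1) that lies between the 4 letters (left) and between the 6 numbers (right) for each cardiac gene (bars); the black line is the median of all 30667 genes and the dashed line the share expected with no relation. All bars but that of Nppa lie below both lines for letters, and all lie below the black line for numbers.

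The levels of the cardiac genes were correlated across samples. Over the 24 samples the Pearson correlation of log2 values with Myh6 was 0.985 for Myl7, 0.946 for Mybpc3, 0.924 for Tnnt2, 0.919 for Myl4 and 0.913 for Myh7. It was 0.829 for Tnni3, 0.808 for Actc1 and 0.724 for Ryr2. Spearman's rho for these 8 genes lay between 0.823 (Ryr2) and 0.977 (Myl4). Permutation tests with 100000 resamples, adjusted over the 9 genes compared, gave p = 1.29e-05 for r in 7 of the 8 and 5.62e-05 for Ryr2, and 1.12e-05 for every rho, where the smallest unadjusted p they can give is 1e-05. For Nppa r was 0.393 (permutation adjusted p = 0.0546) and rho 0.409 (adjusted p = 0.0464), so r missed the threshold.

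Leaving out the 2 samples farthest from the median of Myh6, A3 and B2, gave r of 0.987 for Myl7, 0.778 for Ryr2 and 0.459 for Nppa. Because 5 samples lie well below the rest, the correlation was also taken within the 19 samples of at least 100 normalized counts of Myh6, a choice made after the values were seen. There r was 0.989 for Myl7, 0.983 for Myl4 and for Tnnt2, 0.976 for Mybpc3, 0.942 for Myh7, 0.938 for Tnni3, 0.932 for Actc1 and 0.830 for Ryr2. All 8 values of r were higher than over the 24 samples, whereas Spearman's rho was lower for Myh7 (0.961), Mybpc3 (0.960), Tnnt2 (0.967) and Ryr2 (0.775). For Nppa r was 0.579 there and 0.216 without A4 and B4. The samples share letters and numbers, and numbers relate to many genes, so they are not fully independent.

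**Figure D4:**
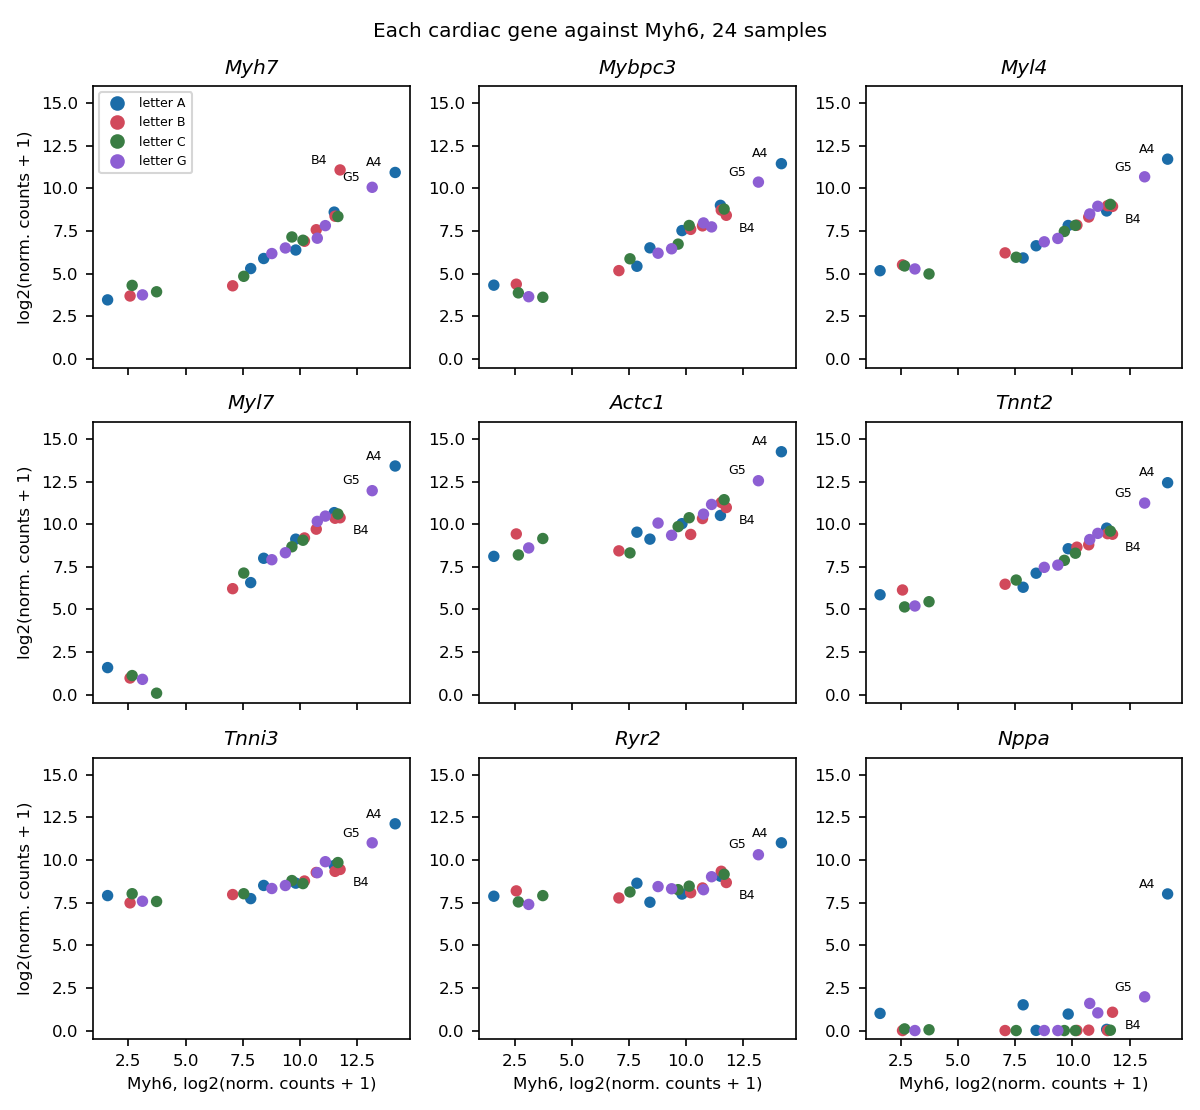
Each of the 9 other cardiac genes (vertical axis) against Myh6 (horizontal axis), both as log2(normalized counts + 1), in 24 samples coloured by letter, with A4, B4 and G5 named. Myl7 follows Myh6 over the whole range, and the other genes but Nppa level off at low Myh6. Actc1, Tnni3 and Ryr2 do so at the highest levels. B4 lies above the others for Myh7, and Nppa is above 2.93 normalized counts only in A4.

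The ratio to Myh6 was narrow for Myl7 and Mybpc3 and wide for Ryr2. Over the 19 samples with at least 100 normalized counts of Myh6, the Myl7 to Myh6 ratio ran from 0.384 in B4 to 0.751 in C6, with a median of 0.509, while Myh6 itself ran from 132 to 18330.1. It was 0.593 in A4 and 0.437 in G5. The Mybpc3 ratio ran from 0.0964 to 0.310, and was 0.152 in A4 and 0.144 in G5. For Actc1, Tnni3 and Ryr2 the ratio was highest where Myh6 was low, at 3.22 in A1, 1.89 in B3 and 1.73 in A1. The Ryr2 ratio had a 15.5-fold range. Myl4 (0.555) and Tnnt2 (0.666) were likewise highest in B3, and Mybpc3 and Myl7 in C6. A1, B3 and C6 had 229, 132 and 185 normalized counts of Myh6. In the 5 samples with little Myh6, Actc1, Tnni3 and Ryr2 kept a floor of 167 or more. Myl4 (30.6 to 44.7), Tnnt2 (34.5 to 69.6) and Mybpc3 (11.3 to 19.9) kept lower ones. In A4 the Actc1, Tnni3 and Ryr2 ratios were 1.06, 0.243 and 0.112. These are ratios of normalized counts not divided by gene length, and can be compared only between samples.

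Genes most like the 10 were found by the Pearson correlation, over the 24 samples, with the mean of their centred log2 values, among 21912 other genes with a mean of at least 10 normalized counts. The closest 12 were Smpx (r = 0.990), Csrp3 (0.983), Mybphl (0.982), Mb (0.975), Ckmt2 (0.972), Sln (0.968), Casq2 (0.964), Srl (0.962), Tbx20 (0.962), Myoz2 (0.960), Hjv (0.944) and Myom2 (0.928). Of these, 10 were also among the 12 closest without A4 and B4, and 9 stood in the lists of muscle genes written down for this work. These r are a description, since the ranking chose them.

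Several of these 12 are parts of the striated muscle cell. Csrp3 encodes a muscle LIM protein of the Z-disc, and had 1.84 normalized counts in G6, a median of 95.4, 1013 in G5 and 2888 in A4. Casq2 encodes cardiac calsequestrin, the calcium store behind the ryanodine receptor, and rose from 21.3 in G6 to 602 in G5 and 1926 in A4. Sln encodes sarcolipin, an inhibitor of the calcium pump that is abundant in atria, with 0.00833 in A3, 216 in G5 and 2767 in A4. Mybphl, a myosin-binding protein H-like gene expressed in atria, had 2.21 in C4, 314 in G5 and 828 in A4. Mb, the myoglobin gene, had 0.0087 in A3, 621 in G5 and 6278 in A4. Tbx20 encodes a transcription factor of the heart and was the only one of the 12 with its highest value in G5, at 249 normalized counts, where A4 had 227.

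The wider cardiac lists held both genes that followed the 10 and genes at a high level in every sample. Among 21 other cardiac sarcomere genes, 21 of 21 found, 12 had an r of at least 0.8 with the mean of the 10, Tnnc1 (0.911) and Tcap (0.90) among them, and 18 had their highest value in A4. Of the 21, 0 passed the letter test and 3 the number test (Nebl, Myh7b and Fhod3), 14.3% against the 31.5% of all genes. Nebl, which encodes nebulette, had 6854 to 12784 normalized counts outside A4, B4 and G5 and an r of 0.115. Ttn, which encodes titin, had 711 to 1366 in those 21 samples, 2863 in G5, 5504 in B4 and 16918 in A4.

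Of 20 genes of cardiac calcium handling and excitation, 4 had an r of at least 0.8 (Casq2, Sln, Trdn and Hrc), 0 passed the letter test and 13 the number test, 65.0% against the 31.5% of all genes. Gja5, which encodes connexin 40 of atrial muscle and of arterial endothelium, was among these 13, and had 3474 to 6248 normalized counts and an r of 0.0783. Pln, which encodes phospholamban, the pump inhibitor of heart muscle, was at 0 to 13.4 normalized counts in every sample, A4 included. Whether so low a level of Pln lies in the tissue or in how its reads were placed and counted was not tested. Of 16 cardiac transcription factor genes, 4 had an r of at least 0.8 (Nkx2-5, Tbx20, Hand2 and Smyd1), 0 passed the letter test and 7 the number test, 43.8% against 31.5%. Nkx2-5, which encodes a homeobox factor of heart muscle, had 52.1 normalized counts in A4, 13.6 in G5 and at most 15.5 (G2) elsewhere. Tbx5, by contrast, had 1501 to 2959.5 outside A4, B4 and G5, and r was 0.279.

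Among ventricular markers, Myl2 and Myl3 were high in A4 and B4. Myl2, which encodes the ventricular regulatory light chain and is also made in slow skeletal muscle, had 779 normalized counts in B4, 199 in A4, 47.8 in G5 and at most 20.2 elsewhere. Myl3, the ventricular and slow skeletal essential light chain gene, had 7222 in A4, 876 in B4 and 2.86 in G5, and at most 14.1 elsewhere. G5, second only to A4 in Myh6, Myl4, Myl7, Actc1, Tnnt2, Tnni3, Mybpc3 and Ryr2, thus had 2.86 of Myl3, under the 14.1 of C1. Of the 9 ventricular genes found of 10, 0 passed the letter test and 2 (Hey2 and Lbh) the number test, 22.2% against 31.5% of all genes. Of these 9, 3 had their highest value in A4, and 0 of the 8 that are not among the 10 had an r of at least 0.8; Hey2 had an r of 0.0468, Lbh of 0.231 and Irx4 of -0.632. Of the 16 atrial genes, which include 3 of the 10, 0 passed the letter test and 7 the number test, 43.8% against 31.5%. Of the 13 others only 2, Sln and Mybphl, had an r of at least 0.8. The median r of these 13 was 0.279, and it was 0.124 for Bmp10, 0.131 for Dkk3 and -0.0809 for Stard10.

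Markers of other tissues were high in A4 together with the cardiac genes, and lower in G5. Acta1, the skeletal alpha-actin gene, had 41069 normalized counts in A4, 11389 in B4, 1005 in G5 and 500.2 to 2119 elsewhere. Krt13 had 6899 in A4, 34.2 in B4 and 26.1 in G5. The 10 squamous epithelium genes, 10 of 10 found, summed to 18843 in A4, 2303 in B4, 1771 in G5 and at most 2348 in any sample but A4. Adipoq, the adiponectin gene of fat cells, had 2283 in A2, 1404 in A4, 399 in B5, 154 in G5 and 20.8 in B4. Their part in the cardiac level of A4 was not tested.

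In G5, whose Myh6 was the second highest, the fast skeletal list summed to 4399 normalized counts, within the 3924 to 4727 of the G samples, and the adipocyte list to 1727, the highest of the G samples, whose lowest was 745. By letter the fast skeletal sum ran from 3827 to 96957 in A, 3566 to 23644 in B and 3668 to 4813 in C. Smooth muscle genes did not follow the 10: 0 of 10 had an r of at least 0.8, 9 of 10 passed the number test (90.0% against 31.5% of all genes), and Acta2 had an r of 0.392. Among 12 genes of striated muscle energy supply, 5 had an r of at least 0.8 and 1 (Cox8b) passed the number test, 8.33% against 31.5% of all genes. Of the 16 fast skeletal genes, 0 had such an r and 6 passed the number test, 37.5%, close to that background. Of 7 slow skeletal genes other than Myh7, 1 had such an r, and of the 8 with Myh7 only Mybpc1 passed the number test, 12.5%. Of the 10 squamous genes 3 (Krt5, Krt14 and Krt10) passed the number test, 30.0%, also close to the background. Of the 8 endothelial genes 6 passed, 75% against 31.5%, and of the 8 adipocyte and the 10 nerve genes 0, and in these 4 lists 0 genes had an r of at least 0.8. The letter test called 0 genes in every list. Of the 8 mesothelium and epicardium genes, 0 passed either test, and Msln, the mesothelin gene, had an r of -0.164. The red blood cell list, 6 of 9 genes found, and the lung parenchyma list, 8 of 8 found, had 0 genes with an r of at least 0.8, and 5 genes each that passed the number test, 83.3% and 62.5% against 31.5%. The red blood cell list summed to 1083300 normalized counts in A4, 868540 in B4, 182877 in G5 and 126084 to 780655 elsewhere.

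**Figure D5:**
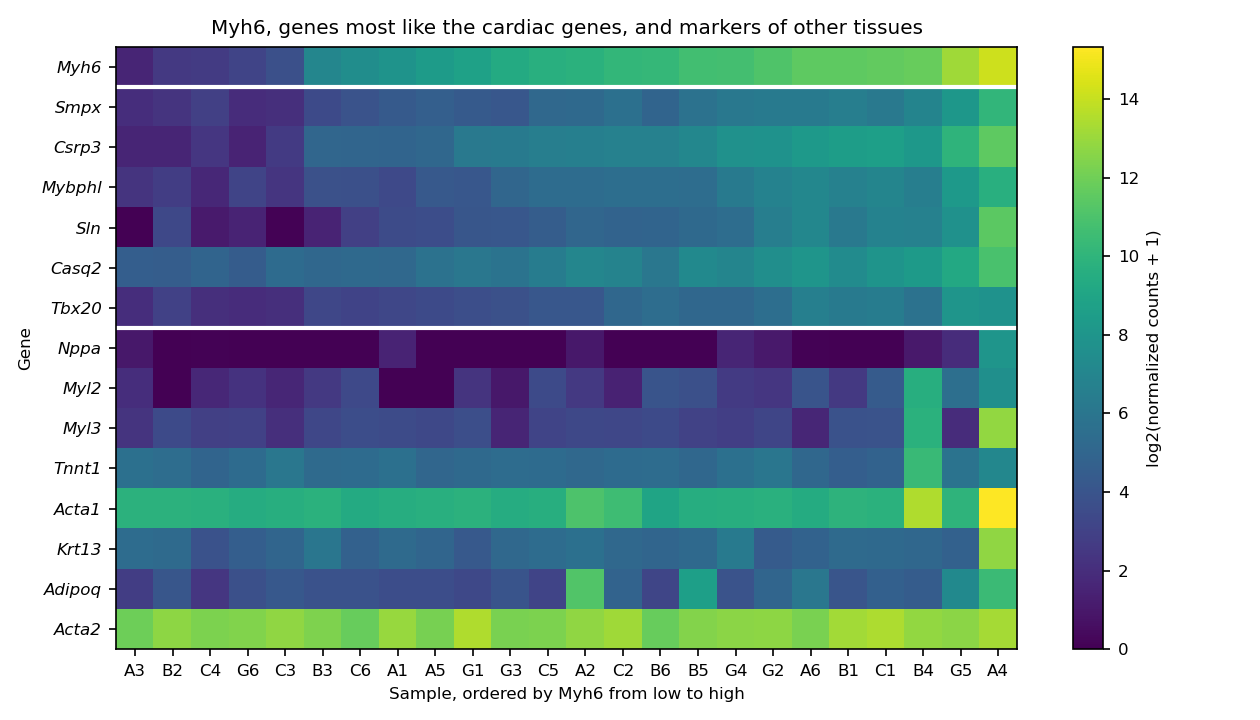
Levels as log2(normalized counts + 1) in 24 samples ordered from left to right by Myh6; rows are Myh6, then 6 of the genes most like the 10, then Nppa and markers of ventricle, skeletal muscle, squamous epithelium, fat and smooth muscle. The upper rows brighten from left to right with Myh6, whereas Myl2, Myl3, Tnnt1, Acta1, Krt13 and Adipoq are bright in A4, B4 or A2.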

How the data were processed

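Gene expression was measured by Illumina sequencing of mRNA from 24 rat lung samples. The deposited values are signal values, by their form read counts adjusted by the authors toward a common size. The submitters' processing notes list STAR and the build GRCm38, a mouse genome, with no role or order, while the samples are from rat. Of the row names, 11662 (38.0%) have the form of mouse gene-model or clone names. If rat reads were placed on a mouse genome, genes whose sequence differs more between the species would lose more reads. This would touch levels between genes. Whether it also touched the same gene between samples was not tested. The counting tool, annotation and normalization are not given in the sources used here. Sums were 61717516 to 66007148 per sample, and the depth is unknown, so no counting interval is given.

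All 30667 genes (mean of at least 0.5) were fitted with limma 3.58.1 (R 4.3.3, trend) on log2(value + 1). The letters were tested with 3 degrees of freedom and in 6 pairs, and the numbers with 5, with the letter in the model. P-values are two-sided and Benjamini-Hochberg adjusted over all genes, with a threshold of 0.05. The design had allowed for counts, which the values are not. Fold changes on this scale understate those of low genes. Correlations used numpy 2.4.6 and scipy 1.17.1. The scripts were tested on simulated data. Named were the 10 genes, the 12 most like them, Acta1, Krt13, Myl2 and, in each list, up to 6 of the most abundant genes and any called; to keep the text short, not all of these are named, and the list genes that are named were selected after their values were seen. The members and lists were chosen with earlier results of these data known.

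Whether equal numbers pair samples was checked on deviations from letter means over 21922 genes. In B against A the 6 correlations were 0.17 to 0.59 and in C against B 0.13 to 0.60, all above the limit of 0.1. Samples of different number were not correlated in this way, so these values cannot say whether the numbers pair samples. In the other 4 pairs at least 1 of the 6 was at or under 0.1.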

Additional observations from a re-analysis of the deposited data

Results flagged for a closer look

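Within a letter, a sample was picked out where its distance to the nearest other sample exceeded 0.625 of the range of the 6 values. This was so for 23 of 40 sets of values, and for 3 of the 40 on the log2 scale. Chance would give about 2 if the values were normally distributed. Normalized counts of these genes are strongly skewed, so the 23 cannot be set against that 2. Values are normalized counts. The 10 genes vary together, so these are not separate events.

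A4 was picked out in all 10 genes: Myh6 at 18330.1 (next A sample 2889.9), Myh7 at 1952, Mybpc3 at 2791, Myl4 at 3353, Myl7 at 10869, Actc1 at 19416, Tnnt2 at 5515, Tnni3 at 4446, Ryr2 at 2054 and Nppa at 256. G5 was picked out in 8: Myh6 at 9136, Myh7 at 1068, Mybpc3 at 1319.5, Myl4 at 1636, Myl7 at 3990.5, Actc1 at 5979, Tnnt2 at 2409 and Ryr2 at 1264. C1 was picked out for Myh6 at 3232, Myl7 at 1545 and Tnni3 at 920.0. B4 was picked out for Myh7 at 2164 and for Nppa at 1.10, where the other B samples had at most 0.02, all levels near 0.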

How the results depend on the processing

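Of the 10 cardiac genes, 0 were called in the test over letters, in any pair of letters and in the test over numbers. The main fits called 0.00652% of all genes over letters and 31.5% over numbers. The count of 0 in 10 held in all 270 recounts: other pseudocount, scalings, filters, robust or weighted fits, fits to the 12 samples of a pair, without A4 and B4, and without each of the 24 samples in turn. The recounts with no filter on the mean repeat the main fits, since all 30667 genes had passed that filter. With the sample number as a replicate block, 0 were called in the letter tests, and the block changed no call; the lowest adjusted p there was 0.589, for Nppa over the letters. G against A rose from 2 called genes of the whole table to 391 (1.27%) with the block. G against C rose from 2 to 11 and the letter test from 2 to 12. None of the called genes was among the 10. Directions were less stable. Leaving out 1 sample moved the median over the 10 genes from -0.70 to 0.56 in B against A, with a sign change without A4, A6, B2 or B3, and with sample weights it was 0.01. It ranged from -0.51 to 0.87 in G against A, with a sign change without A1, A3, A5, G2, G4 or G5, and from -0.28 to 0.75 in G against B, with a sign change without B2 or G5. The sign held in C against A (-1.58 to -0.16), C against B (-1.36 to -0.41) and G against C (0.45 to 1.61). In G against C, Myh6 lay between 0.84 (without C4) and 3.07 (without G6) and Myl7 between 0.97 (without C3) and 3.66 (without G6). Of the 9 correlations with Myh6, 8 passed over all samples and without A4 and B4, and 9 without the 2 farthest samples or within 19 samples, where Nppa joined. DESeq2 was not run, since the table holds no raw counts. Without a known depth, levels near 0 cannot be told from absence.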
